A study of Mus musculus with 12 samples.

Results

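The baseline transcriptome of sensory neurons that innervate the tongue was taken from the 6 libraries of mice without a tongue tumor, of 12 libraries in all, which were chosen by their group labels alone and not by any measured value. They comprised 3 libraries of male normal neurons (MN1, MN2 and MN3) and 3 of female normal neurons (FN1, FN2 and FN3), and each was bulk RNA sequencing of cells sorted from trigeminal ganglia (TG) of adult Balb/c athymic nude mice, a strain without a functional thymus. The dye-coupled lectin WGA-488, which nerve endings take up and carry back to the cell body, was injected in the tongue at day 13, ganglia were taken at day 15, and cells brighter than those of an unstained ganglion were sorted after enzymatic dissociation. Each library pooled 4 TGs from 2 animals, so spread between libraries is spread between small pools and not between single mice. The labels state that normal mice received no cells, whereas the study's methods describe tongues injected with normal human oral keratinocytes, and which of these applied could not be settled. The tumor libraries were not analysed here.

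The trigeminal ganglion holds the cell bodies of the neurons that give touch, temperature and pain sensation to the face and mouth, including general sensation of the tongue. These neurons are told apart by the channels that turn heat, cold, acid or force into current, by the sodium and potassium channels that shape firing, by receptors for trophic factors and inflammatory signals, and by the peptides they release. Nociceptors, the neurons for painful stimuli, are commonly split into peptidergic cells, which hold calcitonin gene-related peptide (CGRP) or substance P, and non-peptidergic cells, which carry the ATP receptor subunit P2rx3 or the receptor Mrgprd. Sensory cell bodies in a ganglion are wrapped by satellite glia.

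Each library held 7112207 to 8922011 reads on genes, and 1 read was worth 0.112 to 0.141 CPM (counts scaled to the reads on genes of the library). Levels are given in CPM within a gene and, where genes are compared, in RPKM, which divides CPM by the exon length in kilobases. FN2 was set apart in advance, with earlier results of these data known. Its Spearman correlation with the other normal libraries over genes at 1 CPM or more was 0.823 to 0.838, against 0.973 to 0.988 among the other 5. Of its counted alignments, 56.0% were of reads that mapped to several places, against 43.0% to 45.5% in those 5. Means, SDs and coefficients of variation (CV, SD as a percent of the mean) are over MN1, MN2, MN3, FN1 and FN3 (n = 5), and FN2 is given beside them. No pair of replicates agreed within sampling noise, so none was counted as 1 sample.

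The sorted cells carried the neuronal markers that their label calls for. Tubb3, the neuronal beta-III tubulin (chr8:125935324-125945915 in mouse build mm9), stood at 4141, 4122 and 3772 CPM in MN1, MN2 and MN3 and 3269.6 and 3582 CPM in FN1 and FN3, with 4576 CPM in FN2. Calca, which encodes CGRP (chr7:121774994-121779871), stood at 4265, 3295 and 3316 CPM in MN1, MN2 and MN3 and 3843 and 3918 CPM in FN1 and FN3, with 11272 CPM in FN2. Pirt, a membrane protein of sensory neurons that modulates TRP channels (chr11:66725483-66743378), stood at 2058, 2070.2 and 1919 CPM in MN1, MN2 and MN3 and 1667 and 1792 CPM in FN1 and FN3, with 485 CPM in FN2. All 3 were high in every library, FN2 was the highest for Calca and by far the lowest for Pirt, and Mtap1b, the microtubule-associated protein also called Map1b, was the most abundant gene of all MN libraries. All 19 sensory neuron markers were at a mean of 100 CPM or more, among them the intermediate filament genes Prph, Nefl, Nefm and Nefh, the axonal growth protein Gap43 and the transcription factors Isl1 and Pou4f1. Their summed level was 37882, 38044 and 36060.0 CPM in MN1, MN2 and MN3, 30607 and 31558 CPM in FN1 and FN3, and 40415 CPM in FN2.

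The promoter windows of 3 abundant genes of these neurons are printed because they carry the 2 short motifs that were counted over all genes below. Each holds 250 bases before and 50 after the transcription start in RefSeq on build GRCm38.p6, 5′ to 3′ on the gene's strand, from chr7:114636308-114636607 (- strand), chr6:7554811-7555110 (+ strand) and chr15:99054924-99055223 (+ strand). Capitals mark TGACG or its complement CGTCA, the core half-site of the cyclic AMP response element, in Calca and Tac1, and the TATA box letters TATAAA in Prph.
Calca: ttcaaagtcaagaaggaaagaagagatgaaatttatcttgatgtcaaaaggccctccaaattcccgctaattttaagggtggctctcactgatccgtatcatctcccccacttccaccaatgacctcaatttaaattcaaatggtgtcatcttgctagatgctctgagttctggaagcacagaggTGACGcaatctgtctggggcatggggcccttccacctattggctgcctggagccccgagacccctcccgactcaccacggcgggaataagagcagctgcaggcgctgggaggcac
Tac1: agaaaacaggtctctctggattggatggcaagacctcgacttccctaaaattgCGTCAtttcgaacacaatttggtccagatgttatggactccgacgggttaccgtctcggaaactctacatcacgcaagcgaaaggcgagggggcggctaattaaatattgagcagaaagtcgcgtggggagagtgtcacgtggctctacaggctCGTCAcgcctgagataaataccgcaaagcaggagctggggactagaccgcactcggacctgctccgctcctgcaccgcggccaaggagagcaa
Prph: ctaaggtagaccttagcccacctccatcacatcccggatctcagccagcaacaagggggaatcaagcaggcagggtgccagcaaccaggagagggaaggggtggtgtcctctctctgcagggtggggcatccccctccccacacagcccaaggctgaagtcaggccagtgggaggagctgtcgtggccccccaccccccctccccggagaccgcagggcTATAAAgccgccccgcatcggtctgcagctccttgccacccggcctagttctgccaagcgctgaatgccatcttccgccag
In Calca the letters TGACG began 65 bases before the start, in Tac1 CGTCA began 197 and 43 bases before it, and in Prph TATAAA began 31 bases before it. TGACG or CGTCA occurred in 20.8% of all 32851 windows, in 31.6% of the 9061 windows of genes at 10 CPM or more, and in 40.8% of the 49 windows of peptide and peptide-processing genes at 10 CPM or more (33 of 41 genes matched). Among the windows of channels, receptors and transcription factors at that level it occurred in 23.6%, 13.2% and 32.6%. TATAAA on the gene's strand occurred in 8.32% of all windows, 3.81% of those of genes at 10 CPM or more and 8.18% of the 110 windows of the 100 most abundant genes (69 matched). The full palindrome TGACGTCA, which contains the half-site on both strands, occurred in 1.79%, 3.21% and 4.55% of the same 3 sets. A match describes these letters only and is no measurement of binding.

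The 10 most abundant transcripts by CPM included the cytoskeletal genes Mtap1b, Actb and Tubb3, the peptide gene Calca and the glycolytic enzyme Aldoa. Of 22609 gene symbols, 9581 had a mean of 10 CPM or more, 2280 of 100 or more and 84 of 1000 or more, 8766 were at 10 CPM or more in each of the 5 libraries, and 5223 had no read in any of the 5. The 10 most abundant genes held 4.43% of gene reads, the 100 most abundant 18.6% and the 1000 most abundant 52.7%. By CPM the list was led by Mtap1b, followed by Ndrg4, a cytoplasmic protein of neurons, and Apoe, the lipid carrier that glia make in quantity. Mtap1b (chr13:100191419-100286557) stood at 7639.7, 7858 and 7217 CPM in MN1, MN2 and MN3 and 5531 and 5021 CPM in FN1 and FN3, with 4584 CPM in FN2. Apoe (chr7:20281458-20284515) stood at 3700.0, 3279.5 and 3968 CPM in MN1, MN2 and MN3 and 6547 and 6516 CPM in FN1 and FN3, with 15599 CPM in FN2. Mtap1b ranked first in the 3 MN libraries, and Apoe ranked first in FN1, FN3 and FN2. Next by CPM were Actb, Fstl1, Sncg, Tubb3, Hsp90ab1, Calca and Aldoa.

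Read per exon length, the most abundant transcripts were those of short genes. Sncg, gamma-synuclein, a small protein of sensory neuron cytoplasm, led at 4617 ± 371 RPKM (SD, n = 5). It was followed by Fth1, the ferritin heavy chain, at 3093 ± 333 RPKM, by Tppp3, a tubulin-binding protein, at 2949 ± 117 RPKM, by Calca at 2518 ± 282 RPKM and by Apoe at 2425 ± 807 RPKM. Tubb3 at 2022 ± 198 RPKM, Uchl1, the neuronal ubiquitin hydrolase, at 2009 ± 88.3 RPKM, Actb at 1745 ± 25.4 RPKM, the annexin Anxa5 at 1724 ± 115 RPKM and the peripheral nerve filament Prph at 1476 ± 50.6 RPKM completed the first 10. The choice of scale mattered for the list, since 27 genes were in the first 50 on both scales, with a median exon length of 3540 bases for the first 50 by CPM and 1532 bases for the first 50 by RPKM. Mtap1b, first by CPM, had 551 ± 107 RPKM and ranked 66 by RPKM, and Calca ranked 9 by CPM and 4 by RPKM.

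The upper end of the list was steady between libraries. Of the 50 most abundant genes by CPM, 40 were in the first 50 of each of the 5 libraries, and single libraries held 45 to 49 of them. FN2 held 27 of the 50. Among the first 30, the median CV was 7.35%, 19 genes had a CV under 10%, and 4 had one over 20%, namely Apoe, Nefl, Lars2 and Malat1. In a test of FN1 and FN3 against the 3 MN libraries (edgeR quasi-likelihood test with Benjamini-Hochberg adjustment over all 13624 genes tested, of which 5.61% passed an adjusted p of 0.05), 6 of these 30 genes passed. With FN2 included 4 of 13344 genes passed (0.03%), none of them among the 30.

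**Figure D1:**
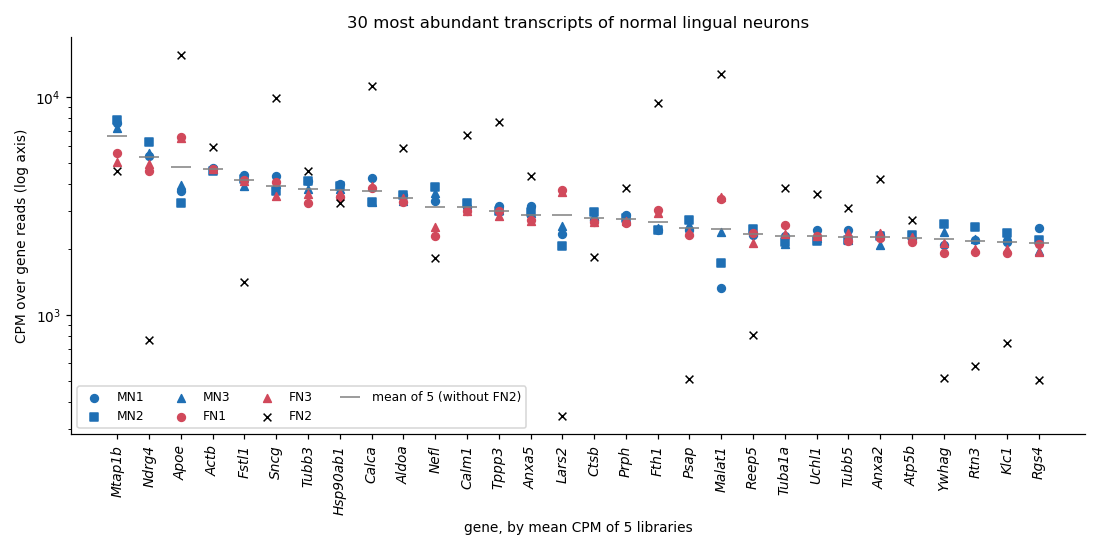
CPM of the 30 genes with the highest mean over the 5 libraries, on a log axis. Blue symbols are MN libraries, red symbols FN1 and FN3, crosses FN2, and grey bars mark the mean of the 5; FN2 lies outside the range of the 5 for all 30 genes.

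Of the 6 genes of the first 30 that passed, Apoe was higher in FN (log2 fold change 0.79 ± 0.08 (SE), adjusted p = 0.000115), as was Lars2, the mitochondrial leucyl-tRNA synthetase (log2 fold change 0.62 ± 0.08 (SE), adjusted p = 0.00105), and the long nuclear RNA Malat1 (log2 fold change 0.86 ± 0.16 (SE), adjusted p = 0.00798). Lower in FN were Mtap1b (log2 fold change -0.57 ± 0.08 (SE), adjusted p = 0.00105), the neurofilament light chain Nefl (log2 fold change -0.63 ± 0.09 (SE), adjusted p = 0.00135) and Ndrg4 (log2 fold change -0.32 ± 0.08 (SE), adjusted p = 0.04), all by edgeR. Lars2 read 2360.2, 2085 and 2555 CPM in MN1, MN2 and MN3 and 3751 and 3685 CPM in FN1 and FN3, with 342 CPM in FN2. Nefl read 3331, 3886 and 3633 CPM in MN1, MN2 and MN3 and 2308 and 2544 CPM in FN1 and FN3, with 1830.3 CPM in FN2. For both genes the 2 groups of libraries did not overlap among the 5, but FN2 was far below the MN libraries for Lars2, where FN1 and FN3 were above them. Ndrg4 no longer passed without FN1, without FN3 or without MN2. The other 5 genes passed with any 1 of the 5 libraries left out. The summed satellite glia and endothelial markers were also higher in FN1 and FN3 than in the MN libraries, as given further on. Their part in these differences was not tested. In bulk RNA, fewer cells of a kind and less RNA per cell cannot be told apart.

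Among peptides and the proteins that package them, a few genes stood far above the rest. Of 120 genes of peptides, growth factors, granins and peptide processing, 41 were at 10 CPM or more and 21 at 100 or more, and together they held 1.41% of gene reads. Calca stood first at 2518 ± 282 RPKM (SD, n = 5), Tac1, the precursor of substance P, second at 791 ± 128 RPKM, and Cpe, the carboxypeptidase that trims peptide precursors, next at 594 ± 32.9 RPKM. The ranges of these 3 did not overlap with each other or with the fourth, so their order held in all 5 libraries. Below them stood the granin Scg3 (401 ± 66.00 RPKM), the processing inhibitor Pcsk1n (393 ± 30.9 RPKM), Calcb, the second CGRP gene (376 ± 54.8 RPKM), the granin-like chaperone Scg5 (342 ± 31.7 RPKM) and Nmb, neuromedin B, a peptide of itch and pain fibres (307 ± 37.2 RPKM). Scg3, Pcsk1n and Calcb had overlapping ranges and cannot be ordered. Calca and Calcb are close copies, and a read that maps to both was not counted.

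Tac1 read 839, 708 and 661 CPM in MN1, MN2 and MN3 and 907 and 975 CPM in FN1 and FN3, with 2910.2 CPM in FN2. FN1 and FN3 lay just above the 3 MN libraries and FN2 was 3.56-fold above their mean. Pituitary adenylate cyclase-activating peptide, Adcyap1, read 284, 206 and 228 CPM in MN1, MN2 and MN3 and 236 and 377 CPM in FN1 and FN3, with 164 CPM in FN2. Bdnf, the neurotrophin that sensory neurons release centrally, read 175, 155 and 123 CPM in MN1, MN2 and MN3 and 143 and 182 CPM in FN1 and FN3, with 296 CPM in FN2. Other peptides that mark small groups of sensory neurons were low: the itch-related peptides Sst and Nppb read 4.25 to 16.9 and 7.96 to 25.03 CPM over the 5 libraries, Npy, which sensory neurons make little of at rest, 0.141 to 5.07 CPM, and Vip 0 to 0.281 CPM. None of the 4 opioid peptide genes reached 10 CPM. Vip was at or under 3 counts in each of the 5 libraries, which is 0.336 to 0.422 CPM and the limit of what the depth could show.

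Galanin, Gal, a peptide known to rise in injured sensory neurons, varied most of the abundant peptides. It read 61.4, 41.6 and 63.7 CPM in MN1, MN2 and MN3 and 109 and 383 CPM in FN1 and FN3, with 1245 CPM in FN2. FN3 was far above the other 4, FN1 was above all MN libraries, and FN2 was the highest of the 6, so the female libraries differed among themselves by more than the male ones. Its CV over the 5 libraries was 108%, the largest of all genes at 100 CPM or more, with 185 ± 201 RPKM. The difference between FN1 and FN3 and the MN libraries passed (log2 fold change 2.10 ± 0.35 (SE), adjusted p = 0.00417, edgeR), and the log2 fold change was 0.92 without FN3 and 2.74 without FN1. Peptides called between the sexes were 6 of 69 tested (8.70%, beside 5.61% of all genes), with Gal and the platelet-derived factor Pdgfc higher in FN and Sst, Scg3, the granin Chga and Fgf1 lower. Scg3 (log2 fold change -0.44 ± 0.10 (SE), adjusted p = 0.0208) and Fgf1 (log2 fold change -0.37 ± 0.09 (SE), adjusted p = 0.0262) passed by edgeR with all 5 libraries, and neither passed when FN1, FN3, MN1 or MN2 was left out. The count of called peptides was 3 without FN1, 2 without FN3, 5 without MN1, 2 without MN2 and 7 without MN3.

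The highest receptor was that for neurotrophins, Ngfr. Of 493 receptor genes, 156 were at 10 CPM or more and 26 at 100 or more. Ngfr, the p75 neurotrophin receptor, stood at 362 ± 66.1 RPKM (SD, n = 5). Mrgprd, a marker of non-peptidergic nociceptors, was also among the first 10 at 205 ± 41.9 RPKM, and so were Gfra3, the artemin receptor (124 ± 16.4 RPKM), Lifr, the receptor of leukemia inhibitory factor (114 ± 12.4 RPKM), the death receptor Tnfrsf21 (112 ± 7.27 RPKM), Ret, the signalling partner of the Gfra receptors (106 ± 19.95 RPKM), the sphingosine phosphate receptor S1pr3 (103 ± 18.8 RPKM) and F2rl2, a protease-activated receptor (97.99 ± 10.9 RPKM), each of which overlapped in range with the next. Gpr56, an adhesion receptor, closed the first 10 at 86.4 ± 9.34 RPKM.

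Ngfr read 1414, 1433 and 1312 CPM in MN1, MN2 and MN3 and 874 and 1212 CPM in FN1 and FN3, with 102 CPM in FN2. FN1 was the lowest of the 5 and FN2 was lower still. Ret read 887, 918 and 833 CPM in MN1, MN2 and MN3 and 641 and 597 CPM in FN1 and FN3, with 151 CPM in FN2, with all MN libraries above FN1 and FN3. Among the other neurotrophin receptors, Ntrk2, the receptor of brain-derived neurotrophic factor, had 10.5 ± 1.05 RPKM and Ntrk3, the receptor of neurotrophin 3, 7.95 ± 1.19 RPKM, and 9 of the 10 receptors of this family were at 10 CPM or more.

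Several receptors for pain mediators were present at low levels. The mu opioid receptor Oprm1 read 23.8, 22.4 and 24.4 CPM in MN1, MN2 and MN3 and 12.4 and 20.8 CPM in FN1 and FN3, with 8.48 CPM in FN2, and the delta receptor Oprd1 1.64 to 2.91 CPM over the 5 libraries. Bdkrb2, the bradykinin receptor, read 5.66 to 7.40 CPM with 0.391 CPM in FN2, F2rl1, the protease-activated receptor of trypsin, 2.33 to 5.78 CPM, and Tacr1, the receptor of substance P, 0.422 to 2.77 CPM. The cannabinoid receptor Cnr1 read 48.4, 48.9 and 44.4 CPM in MN1, MN2 and MN3 and 31.2 and 34.4 CPM in FN1 and FN3, with 14.6 CPM in FN2. Calcrl, which with Ramp1 forms the CGRP receptor, read 11.5, 8.07 and 16.98 CPM in MN1, MN2 and MN3 and 28.03 and 26.3 CPM in FN1 and FN3, with 4.18 CPM in FN2, while Ramp1 read 0.336 to 1.76 CPM over the 5 libraries. Calcrl was higher in FN1 and FN3 than in every MN library, in company with the endothelial markers below. None of 8 chemokine receptor genes reached a mean of 10 CPM, whereas 3 of 35 monoamine and muscarinic receptors and 12 of 55 peptide receptors did. Of 38 taste receptor genes, which belong to taste cells of the tongue epithelium, 1 reached a mean of 1 CPM and 36 were at or under 3 counts in each of the 5 libraries.

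Ion channels were many and none of them dominated. Of 301 channel genes, 131 were at 10 CPM or more and 39 at 100 or more, and together they held 1.35% of gene reads. The highest was P2rx3, the ATP-gated subunit of nociceptors, at 209 ± 30.7 RPKM (SD, n = 5). The potassium channel subunit Kcnab2 had 160.3 ± 14.5 RPKM, the serotonin-gated Htr3a 158 ± 12.7 RPKM, Scn10a, the sodium channel Nav1.8 of nociceptors, 148 ± 31.03 RPKM, and the acid-sensing Accn3, now called Asic3, 141 ± 18.7 RPKM. The sodium channel subunit Scn4b (135 ± 22.9 RPKM), the calcium channel subunit Cacnb3 (112 ± 3.98 RPKM), the kainate receptor Grik1 (100.1 ± 19.4 RPKM), the glycine receptor subunit Glrb (70.7 ± 9.21 RPKM) and the GABA-A subunit Gabra2 (68.4 ± 8.74 RPKM) completed the first 10. Every neighbour in this order overlapped with the next, so no channel stood clear of the one below it.

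P2rx3 read 645, 663 and 616 CPM in MN1, MN2 and MN3 and 519 and 465 CPM in FN1 and FN3, with 148 CPM in FN2. Scn10a read 1163, 1058 and 1017 CPM in MN1, MN2 and MN3 and 697 and 774 CPM in FN1 and FN3, with 236 CPM in FN2. For both the 3 MN libraries were above FN1 and FN3, and FN2 was lowest. Among the channels of heat, cold and force, Trpv1, the capsaicin receptor, read 223, 190.1 and 180.2 CPM in MN1, MN2 and MN3 and 163 and 235 CPM in FN1 and FN3, with 11.4 CPM in FN2. Trpa1, the receptor of mustard oil and other irritants, read 224, 243 and 219 CPM in MN1, MN2 and MN3 and 270.1 and 295 CPM in FN1 and FN3, with 45.1 CPM in FN2. The cold receptor Trpm8 read 33.04, 22.3 and 30.5 CPM in MN1, MN2 and MN3 and 11.7 and 24.4 CPM in FN1 and FN3, with 5.22 CPM in FN2, far under the other 2 per exon length (5.15 RPKM beside 58.7 RPKM for Trpa1 and 53.9 RPKM for Trpv1). Fam38b, now called Piezo2 and the channel of light touch, read 225, 245 and 217 CPM in MN1, MN2 and MN3 and 159 and 176 CPM in FN1 and FN3, with 94.5 CPM in FN2. The CV over the 5 libraries was 15.0% for Trpv1, 12.8% for Trpa1 and 17.5% for Fam38b, beside a median of 14.7% for channels at 10 CPM or more. Among the 5 libraries the sexes did not overlap for Trpa1, higher in FN1 and FN3, or for Fam38b, lower in them. Trpa1 did not pass (adjusted p = 0.151, edgeR). Of 26 TRP channels, 11 were at 10 CPM or more, and Trpv3, a channel of keratinocytes, had no read in any of the 6 libraries.

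Of 14 voltage-gated sodium channel genes, 12 were at 10 CPM or more and 8 at 100 or more. Behind Scn10a came Scn11a, the Nav1.9 channel, at 33.7 ± 8.28 RPKM, Scn9a, the Nav1.7 channel, at 22.2 ± 2.85 RPKM, Scn8a at 13.9 ± 2.67 RPKM and Scn1a at 6.07 ± 1.31 RPKM. Potassium channels were the largest family, with 41 of 90 at 10 CPM or more, among them the sodium-activated Kcnt1 (36.6 ± 8.25 RPKM), the axonal Kcna1 (33.8 ± 4.41 RPKM), the A-type Kcnd1 (30.2 ± 6.88 RPKM) and the leak channel Kcnk18 of nociceptors (19.04 ± 4.91 RPKM). The pacemaker channel Hcn2 had 5.76 ± 0.671 RPKM. None of the 3 epithelial sodium channel genes and none of the 6 cyclic nucleotide-gated channel genes, which serve other tissues, reached a mean of 1 CPM.

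The highest transcription factors were factors of sensory neuron identity and immediate early genes. Of 997 genes, 392 were at 10 CPM or more and 41 at 100 or more. Isl2, a LIM homeodomain factor of sensory and motor neurons, had the highest mean at 173 ± 5.77 RPKM (SD, n = 5). Its range lay within that of Fos, and per exon length it was above Fos in the 3 MN libraries and below it in FN1 and FN3. The immediate early genes Fos (165 ± 64.9 RPKM), Jun (144 ± 12.1 RPKM) and Junb (107 ± 31.7 RPKM) followed. Then came Pou4f1, also called Brn3a and a factor of sensory neuron identity (99.7 ± 8.06 RPKM), Nfe2l1 (95.4 ± 4.10 RPKM), the stress factor Atf4 (93.6 ± 5.91 RPKM), the RNA-binding zinc finger Zfp36 (84.6 ± 37.1 RPKM), the homeodomain factor Tlx2 (84.2 ± 7.40 RPKM) and Nr4a1 (77.4 ± 26.1 RPKM), with Isl1 next at 77.1 ± 8.42 RPKM. Isl2, Pou4f1, Tlx2 and Isl1 varied less than Fos, Nr4a1 and Junb: the CV was 3.33% for Isl2, 8.08% for Pou4f1, 8.78% for Tlx2 and 10.9% for Isl1, beside 39.2% for Fos, 33.7% for Nr4a1 and 29.6% for Junb, though Jun had 8.43%. Prdm12, a factor of nociceptor identity, had 38.05% and was about as variable as Fos.

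Isl2 read 385, 380.4 and 369.5 CPM in MN1, MN2 and MN3 and 397 and 365 CPM in FN1 and FN3, with 537 CPM in FN2. Fos read 215, 340.3 and 306 CPM in MN1, MN2 and MN3 and 600.4 and 484 CPM in FN1 and FN3, with 566 CPM in FN2. Isl2 was nearly level over the 5 libraries, whereas for Fos the females were all above the males. Between the sexes Fos (log2 fold change 0.86 ± 0.15 (SE), adjusted p = 0.00649), Junb (log2 fold change 0.70 ± 0.09 (SE), adjusted p = 0.00111) and Nr4a1 (log2 fold change 0.79 ± 0.10 (SE), adjusted p = 0.00105) were higher in FN by edgeR, of which Fos no longer passed without FN1. The 10 immediate early genes, which cells induce within minutes of stimulation or stress, summed to 1142, 1532 and 1409 CPM in MN1, MN2 and MN3, 2038 and 2042 CPM in FN1 and FN3, and 1910.1 CPM in FN2, so all 3 female libraries were above all 3 male ones. Other factors of sensory neurons were lower: Runx1, which specifies non-peptidergic nociceptors, had 5.90 ± 0.937 RPKM, Prrxl1, also called Drg11, 18.3 ± 1.97 RPKM, and Klf7 28.8 ± 2.88 RPKM. Of the factors of proprioceptors, Etv1 had 3.95 ± 0.242 RPKM and Runx3 read 1.79 to 5.03 CPM.

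**Figure D2:**
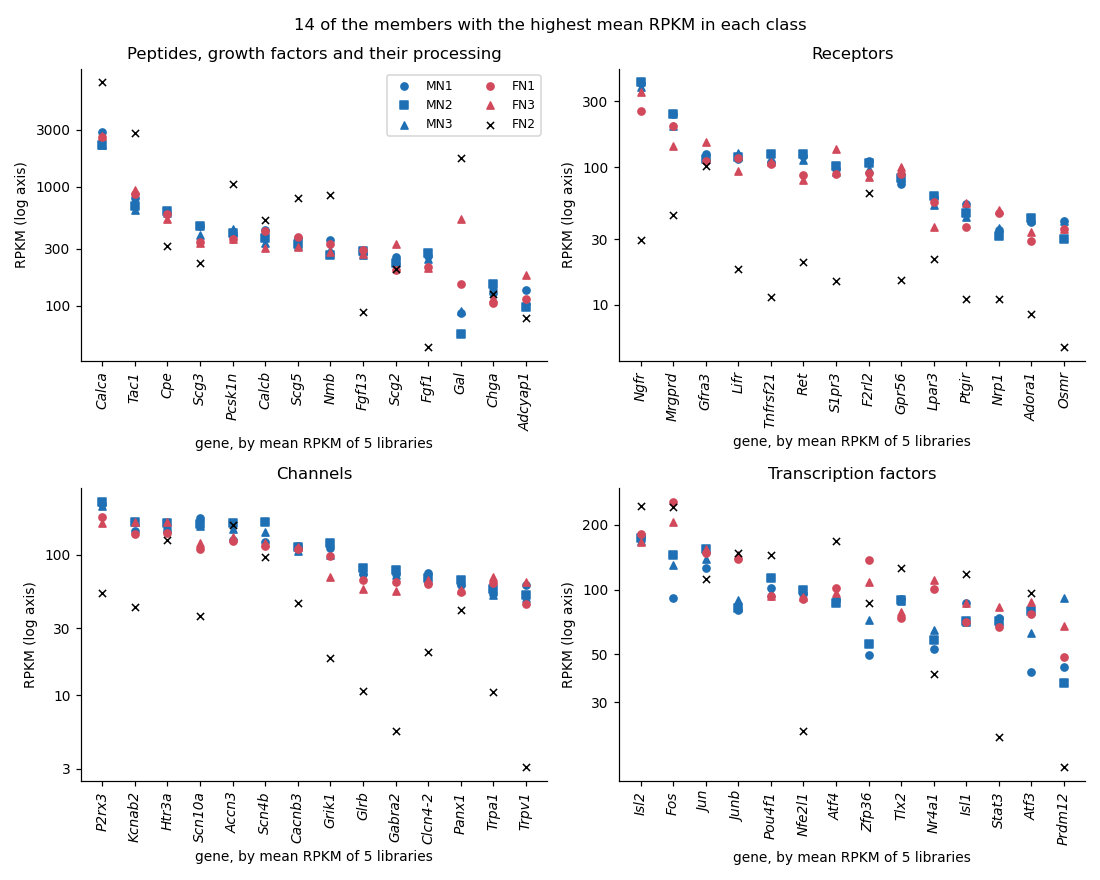
RPKM on log axes of 14 of the highest peptide, receptor, channel and transcription factor genes. Blue symbols are MN libraries, red symbols FN1 and FN3, and crosses FN2; the first 3 peptides stand clear of one another, whereas neighbouring channels overlap.

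Markers of several kinds of sensory neuron were present together, and the sort gated on the dye and not on a kind of neuron. The 5 peptidergic nociceptor markers, led by Calca, summed to 6462, 5319 and 5306 CPM in MN1, MN2 and MN3, 5777 and 6422 CPM in FN1 and FN3, and 14736 CPM in FN2. The 7 non-peptidergic markers, led by Ret, Mrgprd and P2rx3, summed to 2604, 2675 and 2345 CPM in MN1, MN2 and MN3, 2079.8 and 1697 CPM in FN1 and FN3, and 542 CPM in FN2. In the 5 libraries the first sum moved little, and the second was lower in FN1 and FN3 than in every MN library, with FN2 the highest in the first and the lowest in the second. Of the non-peptidergic markers 2 of 7 passed, both lower in FN (beside 1.58% of all genes tested that were lower). Of the peptidergic ones 0 of 5 passed by edgeR or by DESeq2, with 1 by edgeR and 2 by DESeq2 at an unadjusted p under 0.05. Leaving out FN3 or MN2 left 1 called non-peptidergic marker, leaving out FN1 gave 5, and of the peptidergic markers 1 was lower in FN without FN3 and 1 higher without MN1. Markers of mechanoreceptors with myelinated fibres were also above 10 CPM, 9 of 9, and so were 3 of 3 cold neuron markers and 4 of 6 markers of itch neurons.

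Markers of other cells were present in every library, and the satellite glia, endothelial and macrophage sums were higher in each female library than in any male one. The counts of called markers below stand beside 4.03% of all genes tested that were higher in FN and 1.58% that were lower. Satellite glia markers, 11 genes led by Apoe, summed to 5342, 4874 and 5688 CPM in MN1, MN2 and MN3, 8958 and 8835 CPM in FN1 and FN3, and 17473 CPM in FN2, and 7 of them were higher and 1 lower in FN. The FN2 sum was carried by Apoe (15599 CPM). Over the 11 genes the median ratio of FN2 to the mean of the 5 libraries was 0.734, with 3 at least 2-fold below and 1 at least 2-fold above. Endothelial markers summed to 658, 371 and 989 CPM in MN1, MN2 and MN3, 1249.8 and 1264 CPM in FN1 and FN3, and 1287 CPM in FN2, and 6 of 9 were higher in FN, a count that was 0 without FN1 and 0 without FN3 (unadjusted 8 and 7, edgeR), 1 without MN1 and 2 without MN2. By DESeq2 2 of them passed. In FN2, 6 of the 9 were at least 2-fold below the mean of the 5 libraries, with a median ratio of 0.395, and its sum was carried by Ly6c1 (704 CPM) and Cldn5 (427 CPM). Macrophage markers summed to 26.3, 18.7 and 15.4 CPM in MN1, MN2 and MN3, 254 and 108 CPM in FN1 and FN3, and 129 CPM in FN2. Of 11 macrophage markers 9 were tested, and all of these were higher in FN. Their median log2 fold change was 3.11, and 2.34 without FN1. Cd68, Fcgr3, Cx3cr1 and Mrc1 would not have passed the filter on low counts without the FN libraries. A higher level in FN was therefore partly built into this count. The study reported staining for Csf1R and C1qa in tongue-labelled neurons of female mice. Which cells these transcripts came from was not tested here. The summed macrophage markers were low in the MN libraries and highest in FN1. In FN2 the sum was carried by C1qa, C1qb, C1qc, Fcgr3, Tyrobp and Cd68, which with Aif1 were above every MN library. Csf1r, Cx3cr1, Mrc1 and Ptprc had 15, 1, 3 and 0 counts in FN2 and were under every MN library. Schwann cell markers summed to 2183, 2096 and 2174 CPM in MN1, MN2 and MN3, 2582 and 2574 CPM in FN1 and FN3, and 2121 CPM in FN2, with 2 of 9 higher in FN, or 1 without FN1. With FN2 included none of the markers of these 4 cell types passed (edgeR, with 2, 2, 7 and 1 at an unadjusted p under 0.05).

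Markers of lymphocytes and red blood cells were at or near 0. Cd3e, Cd3d, Cd8a and Ms4a1 had no read in any of the 6 libraries, nor had the globins Hba-a1, Hba-a2, Hbb-b1 and Hbb-b2, which are near-identical copies whose shared reads were not counted. Cd79a, of B cells, read 0.224 to 0.459 CPM over the 5 libraries, Cd4 0 to 0.344 CPM and Alas2, of red blood cell precursors, 0.224 to 1.27 CPM, with 1.04, 0.261 and 0 CPM in FN2. Neutrophil markers summed to 0.562, 13.7 and 21.2 CPM in MN1, MN2 and MN3, 65.4 and 15.8 CPM in FN1 and FN3, and 76.2 CPM in FN2. Fibroblast markers summed to 143, 82.4 and 118 CPM in MN1, MN2 and MN3, 167 and 224 CPM in FN1 and FN3, and 412 CPM in FN2, and pericyte and smooth muscle markers to 147, 91.5 and 141 CPM in MN1, MN2 and MN3, 189 and 246 CPM in FN1 and FN3, and 125 CPM in FN2. All of these were far under the neuronal and glial sums.

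**Figure D3:**
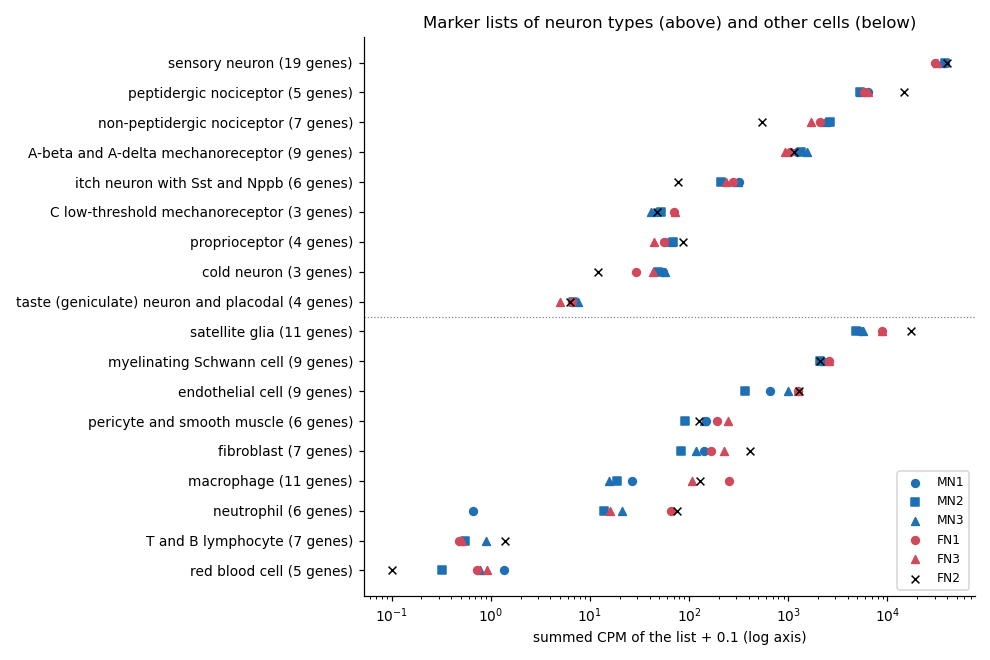
Summed CPM of each marker list per library on a log axis, with 0.1 CPM added so that sums of 0 can be drawn. Blue symbols are MN libraries, red symbols FN1 and FN3, and crosses FN2; the sensory neuron list is highest in every library, and the macrophage list is lower in every MN library, at most 26.3 CPM, than in any FN library, at least 108 CPM.

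Most genes varied little between the 5 libraries. Over the 9581 genes at 10 CPM or more, the median CV was 11.6%, the median CV within sexes 9.74%, and counting error alone gave 5.40%. The highest and the lowest of the 5 libraries were within 1.5-fold of each other for 73.1% of genes, 39.9% had a CV under 10%, and 6.03% had one over 30%. The median CV was 12.8% at 10 to 100 CPM, 8.42% at 100 to 1000 CPM and 8.04% at 1000 CPM or more, so level and CV have to be read together. Among the classes it was 13.8% for transcription factors, 14.7% for channels, 15.4% for peptides and 17.8% for receptors, all above the median of all genes at that level. With FN2 among the libraries the median over all genes became 31.6%.

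Among genes at 100 CPM or more, the steadiest was the polyubiquitin gene Ubb, which read 642, 644 and 629 CPM in MN1, MN2 and MN3 and 639 and 635 CPM in FN1 and FN3, with 2018 CPM in FN2. Its CV over the 5 libraries was 0.925%, though FN2 was 3.17-fold above the mean. Other genes among the 10 steadiest were the proteasome subunit Psmd1 (1.09%), Vwa5a (1.10%), beta-catenin Ctnnb1 (1.14%), the microtubule-associated protein Mtap4 (1.42%), Park7 (1.44%), Tspan7 (1.45%), Actb (1.46%) and Rfk (1.48%). Of these, Ubb, Psmd1, Ctnnb1 and Actb are used by most cells. Among named neuronal genes, Prph (3.43%), Isl2 (3.33%), Cacnb3 (3.57%), the intracellular growth factor Fgf13 (4.16%) and Cpe (5.54%) were among the steady ones.

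The most variable after Gal were Apod, a lipid carrier of glia and fibroblasts (61.7%), the matrix protein Ctgf (57.9%), the vascular receptor Flt1 (52.97%), Id3 (51.2%), Leng8 (51.04%), the noncoding Snhg11 (49.3%), the endothelial lipid transporter Mfsd2a (49.1%), Prom1 (48.5%) and the selenium carrier Sepp1 (48.2%). Apod read 67.2, 70.4 and 85.7 CPM in MN1, MN2 and MN3 and 212 and 237 CPM in FN1 and FN3, with 796 CPM in FN2. Both FN libraries of the 5 were above all MN libraries, and FN2 was above those in turn. All of these 10, Gal included, were higher in FN1 and FN3 than in MN by edgeR (beside 4.03% of all genes tested), as for Apod (log2 fold change 1.54 ± 0.12 (SE), adjusted p = 1.12e-05). They were chosen by a CV over the same 5 libraries, so a difference between the sexes was partly built into their choice. The satellite glia and endothelial marker sums moved the same way between these libraries, and their part in the variation was not tested.

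**Figure D4:**
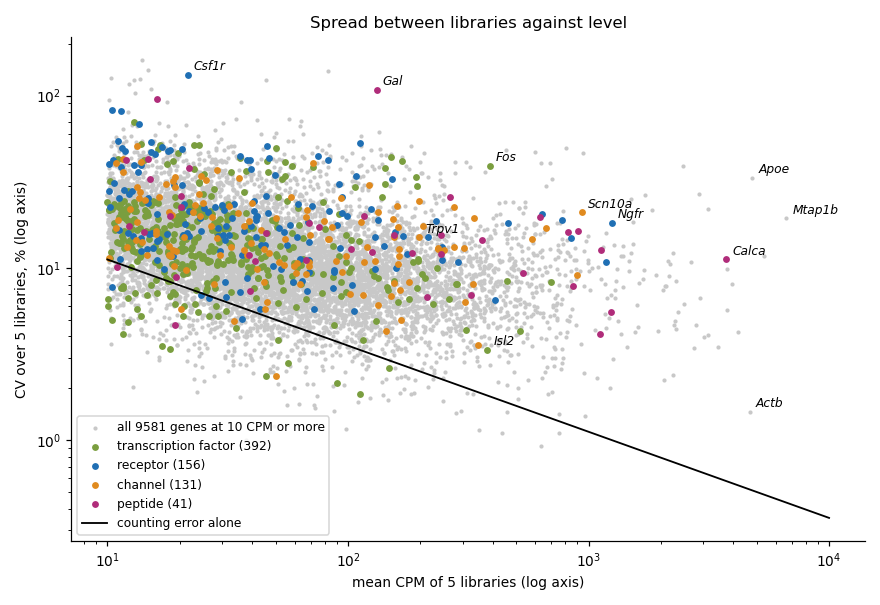
Coefficient of variation over the 5 libraries against mean CPM for the genes at 10 CPM or more, both on log axes. Grey points are genes, coloured points are members of the 4 classes, labels name some genes, and the line is the CV that counting error alone would give; the CV falls as the level rises, and Gal stands highest among genes at 100 CPM or more.

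Channels that differed between the sexes were mostly lower in FN. Of all genes tested 4.03% were higher and 1.58% lower in FN. Of 206 channels tested, 16 were lower (7.77%) and 5 higher (2.43%), with a median log2 fold change of -0.19. Those that were lower included the neuronal channels Scn10a (log2 fold change -0.60 ± 0.09 (SE), adjusted p = 0.00233) and P2rx3 (log2 fold change -0.43 ± 0.09 (SE), adjusted p = 0.0142), and they also included Scn11a, Scn8a, Scn1a, Kcnt1, Kcna1, Kcna2, Kcnd1, Hcn3, Ano3, Chrna6, P2rx6, Tmem63c and Fam38b. The 5 that were higher, the gap junction gene Gja1, the potassium channels Kcnj10 and Kcnn4, the inositol trisphosphate receptor Itpr3 and the kainate receptor Grik3, include Kcnj10 and Gja1, which are known from glia. P2rx3 no longer passed without FN3 or without MN2. The count of called channels, 21 with the 5 libraries, was 9 without FN1, 12 without FN3, 21 without MN1, 9 without MN2 and 22 without MN3, and with FN2 it was 0 (16 at an unadjusted p under 0.05).

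Of 300 receptors tested, 33 were higher in FN (11.00%) and 13 lower (4.33%), a balance of higher to lower like that of all genes. The higher ones included Csf1r, Cx3cr1, P2ry6 and Gpr34, receptors known from macrophages, Flt1, Kdr, Tek and Tie1, known from endothelium, and Erbb3 and Ednrb, known from glia. Of these, Cx3cr1, P2ry6 and Gpr34 would not have passed the filter on low counts without the FN libraries. Csf1r read 6.61, 3.14 and 2.30 CPM in MN1, MN2 and MN3 and 69.1 and 26.6 CPM in FN1 and FN3, with 1.96 CPM in FN2, with FN1 and FN3 far above every MN library and FN2 below them (log2 fold change 3.57 ± 0.40 (SE), adjusted p = 0.000272, edgeR). The lower ones included the trophic factor receptors Ret (log2 fold change -0.56 ± 0.09 (SE), adjusted p = 0.00287), Ngfr (log2 fold change -0.46 ± 0.12 (SE), adjusted p = 0.0371) and Gfra1, the cannabinoid receptor Cnr1, the itch receptor Il31ra, the leukotriene receptor Cysltr2, Mrgprb5, the oxytocin receptor Oxtr and the inhibitory receptors Adora1, Grm4 and Gabbr1. Ngfr no longer passed without FN1, without MN1 or without MN2. The count of called receptors, 46 with the 5 libraries, was 19 without FN1, 17 without FN3, 22 without MN1, 20 without MN2 and 50 without MN3, and with FN2 it was 0 (25 at an unadjusted p under 0.05).

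Of 711 transcription factors tested, 37 were higher in FN (5.20%) and 3 lower (0.422%), a share called of 5.63% that was close to that of all genes. Beside the immediate early genes these included Sox10, a factor of glia, Sox17 and Sox18, of endothelium, Irf8, of macrophages, and the clock-controlled factors Hlf and Dbp. Irf8 would likewise not have passed the filter on low counts without the FN libraries. None of Isl1, Isl2, Pou4f1, Tlx2 and Prrxl1 passed, with log2 fold changes of -0.01, -0.04, -0.20, -0.28 and -0.20, each with an SE of 0.09 to 0.13. The count of called factors, 40 with the 5 libraries, was 14 without FN1, 16 without FN3, 23 without MN1, 21 without MN2 and 46 without MN3, and with FN2 it was 0 (44 at an unadjusted p under 0.05). Peptides with FN2 also gave 0 (5 at an unadjusted p under 0.05, edgeR), and no other tool than edgeR was run with FN2.

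FN2 held the same kinds of transcript at other levels. For 8543 of the 9581 genes at 10 CPM or more it lay outside the range of the other 5 libraries. It was at least 2-fold above their mean for 1425 genes (14.9%) and at least 2-fold below for 3899 (40.7%), and for 1648 genes it was at least 4-fold below. Its 10 most abundant genes held 9.07% of gene reads and its 100 most abundant 27.7%, and Apoe alone held 1.56%. Its total of gene reads was within the range of the others.

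The classes were affected unequally. Of the channels at 10 CPM or more, 74 of 131 were at least 2-fold lower in FN2 and 4 at least 2-fold higher, and of the receptors 106 of 156 and 3. For transcription factors these were 192 and 28 of 392, and for peptides 10 and 8 of 41. The median of the FN2 level over the mean of the 5 was 0.362 for receptors, 0.466 for channels, 0.512 for transcription factors, 0.857 for peptides and 0.643 for all genes. Trpv1 was 17.5-fold below the mean of the 5 in FN2 and the A-type potassium channel Kcnd1 47.1-fold below, whereas Trpa1 was 5.54-fold below and Scn9a 1.10-fold above. The largest rises in FN2 included the growth-associated Sprr1a, which is known as an axon injury gene (11.98-fold above), the kinase Dapk3 (14.7-fold above), the homeodomain factor Tlx3 (10.95-fold above) and Gal (9.44-fold above). Genes were eligible at 50 CPM in the mean of the 5 or in FN2, and Sprr1a, Dapk3 and Tlx3, with means of 13.9, 9.62 and 6.09 CPM, were eligible through FN2 only, so that a rise was built into their choice.

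The level in FN2 moved with exon length. The median of FN2 over the mean of the 5 was 2.72 for the 292 genes under 1 kb, 1.93 at 1 to 2 kb, 0.857 at 2 to 3 kb, 0.460 at 3 to 4 kb, 0.447 at 4 to 6 kb and 0.507 over 6 kb. Genes under 2 kb held 39.9% of its gene reads, against 17.5% to 19.6% in the others. The Spearman correlation of the log ratio with length across genes was -0.423 in FN2 and -0.175 to 0.253 in the other 5, a description over genes that share 1 library. Receptors and channels have long transcripts, with median exon lengths of 4636 and 4583 bases beside 3925 for all genes at 10 CPM or more. Within 2 to 4 kb the median ratio was 0.283 for receptors, 0.409 for channels, 0.522 for transcription factors and 0.637 for peptides, beside 0.638 for all genes. The share of alignments from reads that mapped to several places also differed in FN2, as given above, and the part of either in the FN2 levels was not tested.

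**Figure D5:**
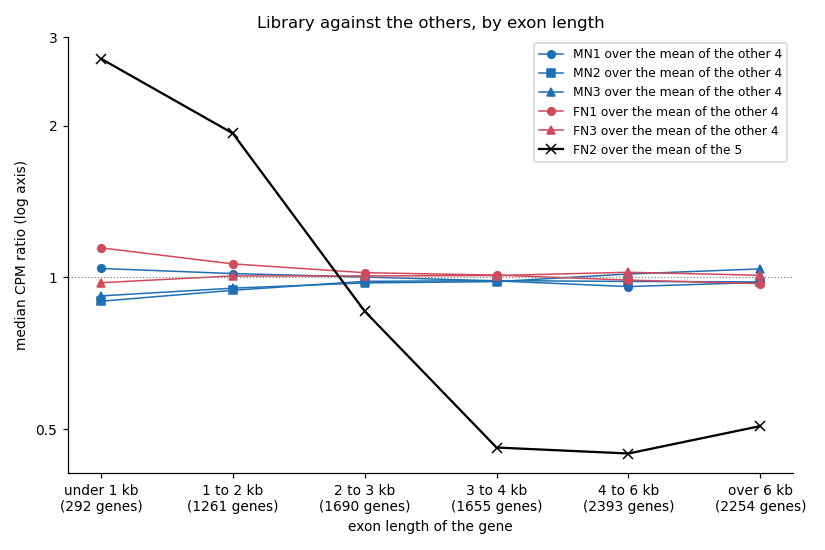
Median over genes of a library's CPM divided by the mean of the others, by exon length, with a log vertical axis. Blue lines are MN libraries and red lines FN1 and FN3, each over the mean of the other 4, and the black line is FN2 over the mean of the 5; FN2 falls from 2.72 under 1 kb to 0.447 at 4 to 6 kb, while the other 5 stay between 0.897 and 1.15 in every length class.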

How the data were processed

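Cells labelled from the tongue with WGA-488 were sorted from trigeminal ganglia, and SMART-seq2 libraries were made with PCR preamplification. The submitters' processing notes name CASAVA 1.8.2, TopHat2, SAMtools, HTSeq and build mm9, and the gene annotation and strand setting are not given in the sources used here. The authors deposited unnormalized whole-number read counts per gene for 22609 symbols. Groups were taken from the sample labels. Between 76.3% and 82.0% of counted alignments per library were assigned to no gene and were left out. A read that maps to several places can enter this share more than once. Reads that map to several places were not counted, so genes with near-identical copies are uncertain (Gapdh had a mean of 0.85 CPM, and 22 of 80 Rpl and Rps symbols were under 1 CPM), and no mitochondrial symbol is listed. Without strand, overlapping and antisense genes cannot be separated.

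CPM were computed over gene rows. RPKM used the union of exons in GENCODE mouse release M1 on mm9, which matched 95.8% of symbols. There were no molecular identifiers, so counting error and floors (3 counts per library) cover counting error only. FN was compared with MN in MN replicates 1 to 3 and FN replicates 1 and 3 with edgeR 4.0.16 in R 4.3.3 (TMM, filterByExpr with a minimum count of 10 and a minimum total of 15, quasi-likelihood test, Benjamini-Hochberg adjustment, limit 0.05). The p-values measure the spread between pools of animals. Of 200 genes changed in simulated data, edgeR called 83 of 100 at 2-fold and 32 of 100 at 1.5-fold, and it called 11 unchanged genes of the 13624. Alternatives used DESeq2 1.42.0, limma-voom of limma 3.58.1, other filters and scalings, FN replicate 2, a replicate block and each library left out. Whether replicate numbers pair the samples was not settled. The deviations from the group means of same-numbered libraries had correlations of -0.09, -0.01 and 0.11. The FN mean included FN2, which stood apart, so these values could not decide it.

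Genes named are the 30 highest by CPM and 20 by RPKM, the up to 10 highest by RPKM in each class and 4 in each family with textbook members, cell type markers, the 10 lowest and 10 highest CVs at 100 CPM or more, the 10 largest rises and falls in FN2 at 50 CPM or more in the 5-library mean or in FN2, and up to 10 called class members in each direction. Other called class members were named after their values were seen. Some genes are not reported here. The members and lists were chosen with earlier results of these data known. Promoter windows are those of RefSeq on GRCm38.p6. Other calculations used Python 3.11.15 with pandas 2.3.3, numpy 2.4.6, scipy 1.17.1 and matplotlib 3.10.9.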

Additional observations from a re-analysis of the deposited data

How the results depend on the processing

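The number of genes at 10 CPM or more was 9581, and 4256 with a limit of 50 CPM. The percent of gene reads in the 100 most abundant genes was 18.6% and 19.4% with FN2. The median CV over genes at 10 CPM or more, 11.6%, became 31.6% with FN2, 14.9% with a limit of 1 CPM, 9.13% with a limit of 50 CPM and 19.2% with no limit, and leaving out 1 library gave 10.6% to 11.6%. Of the 50 most abundant genes by CPM, 27 were among the first 50 by RPKM, where less weight goes to long genes by construction. The 764 genes called between FN and MN were 1179 with no filter on low counts, 4 with FN2 (778 at an unadjusted p under 0.05) and 258 to 918 with 1 library left out, of which the fewest were without FN1 (258), MN2 (293), FN3 (345) and MN1 (492), fits with fewer samples. With a replicate block 703 genes were called, and with the replicate block and FN2 together 0 (439 at an unadjusted p under 0.05, edgeR). Whether the numbers pair the samples was not settled, so the block is given as an alternative only. Without a scaling factor beyond library size 601 genes were higher and 135 lower in FN, against 549 and 215. DESeq2 called 774 and limma-voom 817.

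Of the 18 fold changes that passed and are printed with an SE, all kept their direction except that of Lars2, which was -0.30 with the replicate block and FN2 together, and none passed with FN2. Malat1 no longer passed by DESeq2 or with robust dispersion, and Gal, Fos and Csf1r no longer passed with robust dispersion. Ndrg4 and Ngfr no longer passed without a scaling factor. Leaving out 1 of the 5 libraries, or weighting the sexes equally, cannot move a mean by 1 SD, so those settings could not decide how steady levels were. The mean level of 312 named genes moved by less than 1 SD under every rescaling of the libraries, and that of 105 moved by more with FN2. The cause of these changes was not tested.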
